A study of Mus musculus with 2 samples.

Results

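Runx1, Runx2 and Runx3, the 3 mouse genes of the RUNX transcription factor family, and Cbfb, the gene of their shared partner subunit, were described in single-cell RNA sequencing of the mouse colon lamina propria. They were chosen by gene symbol, which makes 4 genes of the 31053 features counted in both libraries. The WT library was made from mice with both copies of a long non-coding RNA intact and the KO library from mice lacking this RNA, named LncRNA17Rik in the labels and lncLy6c by the study. Both were labelled as CD11b+ cells of the gut, and each pooled male mice of 8 weeks. The KO line was made by CRISPR-Cas9 in the germline of C57BL/6J mice, so the deletion was present in every cell class described here. No feature carried either name of the deleted RNA, so the genotype labels were not checked on it. With 1 library per genotype, each KO to WT ratio below compares 2 libraries; its 95% interval covers counting error only, and no p-value was given because cells are not replicates.

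RUNX proteins bind DNA through a conserved runt domain, and CBFβ, the product of Cbfb, does not touch DNA itself but raises the affinity and stability of each RUNX protein. RUNX1 is needed for the formation of blood stem cells and acts in most myeloid and lymphoid lineages, RUNX2 is the master regulator of bone-forming cells, and RUNX3 is known for its role in CD8+ T cells, natural killer cells, innate lymphoid cells and dendritic cells. Because the 3 RUNX proteins compete for one partner and one DNA motif, their levels are shown side by side.

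The members lie on 4 chromosomes (GRCm38, GENCODE M21). Runx1 (ENSMUSG00000022952) spans chr16:92601466-92826149 on the minus strand, Runx2 (ENSMUSG00000039153) chr17:44495987-44814797 on the minus strand, Runx3 (ENSMUSG00000070691) chr4:135120652-135177990 on the plus strand and Cbfb (ENSMUSG00000031885) chr8:105170674-105217989 on the plus strand. RUNX genes have a distal and a proximal promoter, and the 3' tags counted here do not tell transcripts of these promoters apart. Exons of Runx1 and Runx2 share bases with the antisense genes Gm26626 (2 UMIs in WT and 3 in KO) and Runx2os1 (30 and 41 UMIs); whether the counting used strand is not given in the sources used here, and Runx3 and Cbfb share exon bases with no other counted gene. The distal start windows of all 3 RUNX genes (RefSeq, GRCm38.p6) held one shared stretch of 18 bases, the longest common to all 3, with a pair of RUNX core motifs, which is shown because it is the promoter feature the family has in common; the capitals mark it, 5′ to 3′ on the strand of each gene.
Runx1, chr16:92826025-92826054: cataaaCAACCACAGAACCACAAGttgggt
Runx2, chr17:44814583-44814612: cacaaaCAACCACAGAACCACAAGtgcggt
Runx3, chr4:135120503-135120532: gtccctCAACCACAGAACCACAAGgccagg
The core motif TGTGGT, searched on both strands and read as ACCACA in these stretches, was found in 16.8% of all 32851 windows of the same length, which reach from 250 bases before to 50 bases after an annotated start. It occurred 2 times in the distal window of Runx1, 3 times in that of Runx2 and 2 times in that of Runx3, and 0 times in the second windows listed for Runx1 and Runx3 and in the window of Cbfb. The whole stretch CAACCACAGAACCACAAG was found in 4 windows, those of the 3 RUNX genes and that of Gm16225, which lies on the opposite strand and overlaps the Runx3 window. No binding was measured here, so these matches describe the sequence and not occupied sites.

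The WT library held 3185 barcodes and 22191774 UMIs (unique molecular identifiers, each standing for one captured transcript), and the KO library 3020 barcodes and 23384895 UMIs. The WT library held several times fewer barcodes than the cells the study states for WT, and the KO library slightly fewer than it states for KO; the step between them is not given in the sources used here. The filter stated by the study kept 2597 WT and 2514 KO cells, with medians of 5073 and 6564.5 UMIs per cell. Cells were clustered without the 4 members and 13 classes were named by known marker genes as "X-like", of which 8 held at least 50 cells in both libraries. T, B, plasma, epithelial and fibroblast-like cells, which mostly lack CD11b, were present in spite of the label. Unnamed cells made up 5.89% of WT and 3.06% of KO cells, and a cluster led by Retnla and Ccl24 that was kept out of the cDC2 class made up 0.693% and 11.0%. Immunoglobulin UMIs were higher in WT in every class with 50 cells in both libraries, for example 2115 against 177 CPM (UMIs per 1000000 UMIs of the class) in resident macrophage-like cells, and the part of this in the results was not tested. In WT plasma cell-like cells they reached 392432 CPM, which lowers the CPM of every other gene there. The name of the eosinophil-like class rested on 3 of 8 markers (Siglecf, Ccr3 and Alox15) and was decided by a tie-break, since 3 neutrophil markers were raised as well and the neutrophil gene Retnlg was among its leading genes, and its cells were shallow, with medians of 739.5 UMIs in WT and 970 in KO.

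Runx1, the family member with the broadest role in blood cells, was the most abundant RUNX transcript in macrophage, monocyte and neutrophil-like cells of both libraries. Levels are given in CPM, and a captured transcript is counted by its 3' tag whatever its length. Whether capture and mapping were alike for the 4 genes was not tested, so comparisons between genes are approximate. Among the classes with at least 50 cells, inflammatory monocyte-like cells ranked first in WT with 371 CPM (350 to 393, 1191 UMIs in 614 cells), above resident macrophage-like cells with 308 (283 to 335, 545 UMIs in 265 cells), and these intervals did not overlap. cDC2-like cells followed with 272, cDC1-like cells with 239 and neutrophil-like cells with 222, whose neighbouring intervals overlapped. B cell-like, eosinophil-like and T cell-like cells lay lower, between 108 and 124, and epithelial cell-like and plasma cell-like cells lowest with 47.4 and 16.7. In KO the first 2 places among these classes were exchanged: resident macrophage-like cells had 455 (415 to 498, 474 UMIs in 127 cells) and inflammatory monocyte-like cells 353 (332 to 374, 1141 UMIs in 389 cells). cDC1-like cells had 238, cDC2-like cells 210, T cell-like cells 154, neutrophil-like cells 153, B cell-like cells 109 and eosinophil-like cells 98.9. NK cell-like cells, with fewer than 50 cells, had 226 in WT and 419 (331 to 524) in KO. Of the neighbours in the order, 3 of 10 pairs in WT and 4 of 7 in KO were apart beyond their intervals.

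Runx3, the member followed by the study, was spread over myeloid and lymphoid classes alike. Among the WT classes with at least 50 cells, the 5 with the most Runx3 were close in level: cDC2-like cells 286 (266 to 307), inflammatory monocyte-like cells 272 (254 to 291), resident macrophage-like cells 259 (236 to 284), T cell-like cells 242 (217 to 268) and cDC1-like cells 234 (208 to 262) CPM, each overlapping its neighbour, though the first and the last of them did not overlap. B cell-like cells had 131, neutrophil-like cells 94.5, eosinophil-like cells 72.3 and plasma cell-like cells 49.2. Fibroblast-like and epithelial cell-like cells, which are not of the blood lineage, had 11.5 and 2.93. NK cell-like cells, a class under 50 cells, held the highest Runx3 level of the named classes, 545 in 26 WT cells and 419 in 41 KO cells, above the 356 and 131 of mature DC-like cells (19 and 44 cells). In KO, T cell-like cells ranked first with 204 (172 to 241), followed by resident macrophage-like cells with 173, cDC2-like cells with 165, cDC1-like cells with 162, eosinophil-like cells with 143, B cell-like cells with 122, inflammatory monocyte-like cells with 103 and neutrophil-like cells with 21.6. The single step beyond the intervals in KO lay between the last 2 classes.

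Runx2, the bone regulator, was the rarest member in most classes. It reached 102 CPM (86.0 to 119, 150 UMIs) in WT T cell-like cells, and the next class, plasma cell-like cells, had 49.2 (42.7 to 56.5, 201 UMIs), the single step beyond the intervals in its order. In WT, immunoglobulin UMIs were at 392432 CPM in plasma cell-like and 14819 in T cell-like cells. The size of this step thus depends on counting them in the total, and whether it remains without them is not given here. Neutrophil-like cells had 42.5 and fibroblast-like cells 36.8, and the other WT myeloid classes with at least 50 cells lay between 19.2 and 24.1. B cell-like cells had 6.35 from 5 UMIs. No Runx2 UMI was found in 119 WT epithelial cell-like cells, with an upper bound of 2.16 CPM. In KO no neighbours differed beyond their intervals, and levels ran from 29.4 in inflammatory monocyte-like cells to 5.08 in B cell-like cells.

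Cbfb, the partner subunit, followed another order. In WT it was highest in cDC1-like cells with 134 CPM (115 to 155), eosinophil-like cells with 133 (83.1 to 201), B cell-like cells with 114 (91.9 to 141) and T cell-like cells with 109 (92.8 to 127), and lower in cDC2-like cells with 67.7, inflammatory monocyte-like cells with 63.9 and resident macrophage-like cells with 54.9. Neutrophil-like cells had 28.3 from 6 UMIs. The cDC1-like level pooled 169 (135 to 209) in a cycling cluster and 111 (89.3 to 137) in a cluster led by Xcr1. In KO, cDC1-like cells were again first with 96.3 (88.0 to 105) and neutrophil-like cells last with 20.4. The classes with the most Runx1 were thus not those with the most Cbfb, while cDC1-like and T cell-like cells stood high for Runx3 and Cbfb alike. Per RUNX UMI there were 0.0935 Cbfb UMIs in WT resident macrophage-like cells, 0.0958 in inflammatory monocyte-like cells, 0.271 in cDC1-like cells and 0.437 in B cell-like cells.

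**Figure D1:**
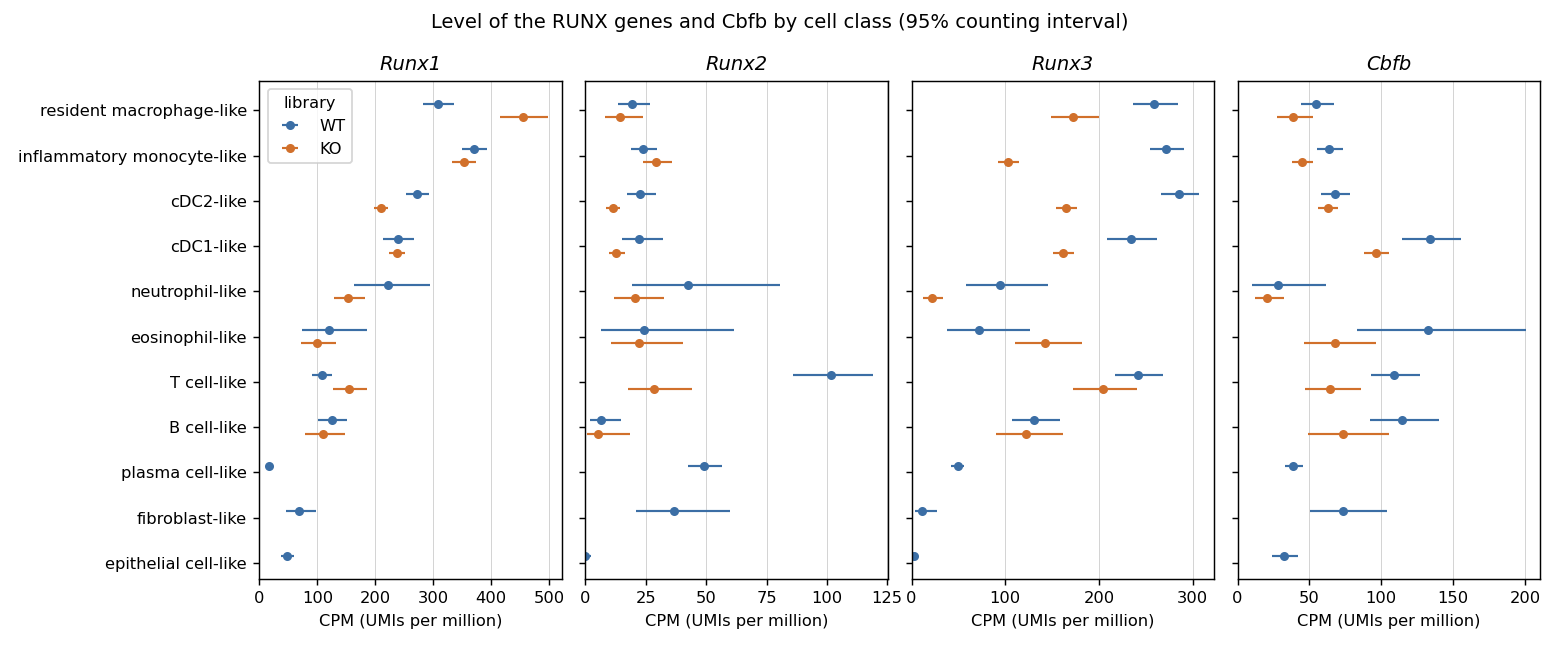
Level of each member (x axis, CPM) in each cell class with at least 50 cells in a library, with WT in blue and KO in orange; points are summed UMIs over all cells of the class and bars are exact Poisson 95% intervals. Runx1 in resident macrophage-like cells moved from 308 in WT to 455 in KO while Runx3 moved from 259 to 173, and Runx2 stood out in WT T cell-like cells at 102.

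The make-up of the RUNX UMIs, which does not depend on the depth of a library, differed between several of the classes. WT resident macrophage-like cells held 52.6% Runx1, 3.28% Runx2 and 44.2% Runx3 among 1037 RUNX UMIs. WT cDC2-like and B cell-like cells were close to even, with 747 Runx3 UMIs of 1517 (49.2%) and 103 of 206. NK cell-like cells of WT were led by Runx3 with 67.8% (58.7 to 76.0%) of 121 UMIs, and WT T cell-like cells held 53.6% Runx3, 23.9% Runx1 and 22.5% Runx2. WT plasma cell-like cells, the antibody-secreting cells, held as many Runx2 as Runx3 UMIs, 201 each, which is 42.8% of 470, and only 14.5% Runx1. WT epithelial cell-like cells were almost purely Runx1, with 94.2% (87.0 to 98.1%) of 86 UMIs.

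The Runx3 share was lower in KO in the macrophage, monocyte and NK cell-like classes and little different in T and B cell-like cells. It went from 44.2% (41.1 to 47.2%) in WT to 26.9% (23.6 to 30.4%) in KO in resident macrophage-like cells, and from 40.8% (38.7 to 42.9%) to 21.2% (19.2 to 23.3%) in inflammatory monocyte-like cells, a class made of different clusters in the libraries, in 3 of whose 4 clusters the intervals of the WT and KO shares overlapped. The cDC2-like and cDC1-like classes differed by less, 49.2% against 42.7% and 47.3% against 39.3%, and none of these 4 pairs of intervals overlapped. Mature DC-like cells, 19 in WT and 44 in KO, had 75.0% (63.7 to 84.2%) of 76 and 57.0% (48.9 to 64.8%) of 158 UMIs. Their intervals overlapped. NK cell-like cells, 26 in WT and 41 in KO, went from 67.8% (58.7 to 76.0%) to 49.4% (41.3 to 57.5%) of 156 UMIs, with Runx1 at a log2 ratio of 0.89 (0.29 to 1.52) and Runx3 at -0.38 (-0.85 to 0.09). In T cell-like cells it was 53.6% (49.7 to 57.4%) and 52.8% (46.6 to 58.8%), and in B cell-like cells 103 of 206 and 48 of 93 RUNX UMIs. Eosinophil-like cells had 33.3% in WT and 54.2% in KO, with overlapping intervals from 36 and 120 UMIs. Neutrophil-like cells had 26.3% and 11.0%, with intervals that touched at 16.9%.

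**Figure D2:**
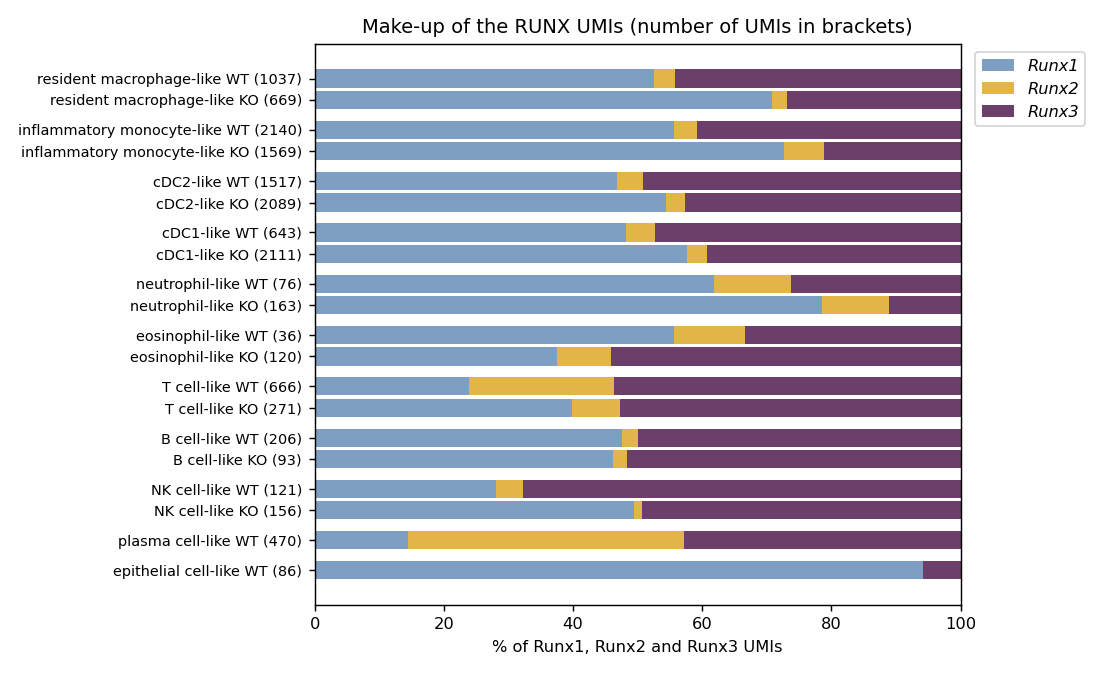
Make-up of the RUNX UMIs in each class and library (x axis, percent of the sum of Runx1, Runx2 and Runx3 UMIs; the number of UMIs stands in brackets), for classes with at least 20 such UMIs. Runx3 filled 44.2% of the bar of WT and 26.9% of that of KO resident macrophage-like cells, Runx2 filled 42.8% in WT plasma cell-like cells, and Runx1 94.2% in WT epithelial cell-like cells.

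Resident macrophage-like cells, which carried all 10 of their markers such as C1qa, Mrc1 and Cx3cr1, are the population in which the study followed Runx3. The KO to WT log2 ratio of Runx3 was -0.59 (-0.84 to -0.33), from 458 UMIs in 265 WT and 180 UMIs in 127 KO cells. Runx1 went the other way, at 0.56 (0.38 to 0.74), 1.47-fold higher in KO, and was at 0.055 when coarser clustering widened the class to 850 WT and 347 KO cells. The median mitochondrial share of the UMIs in these cells was 3.84% in WT and 5.61% in KO, and its part in both ratios was not tested. Cbfb was at -0.52 (-1.09 to 0.03) and Runx2, from 34 and 15 UMIs, at -0.42 (-1.40 to 0.50), and both intervals included 0. Of the 4 members, 1 interval thus lay below 0 and 1 above 0; among all 7955 genes with at least 20 UMIs in this class, 22.7% lay below 0 and 9.08% above. A ratio below 0 was therefore common here, and the median of all genes was -0.24, so Runx3 stood at -0.35 and Runx1 at 0.80 relative to it. The sum of the 3 RUNX genes differed little, 587 CPM in WT and 642 in KO.

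Runx3 was detected in 141 of 265 WT and 66 of 127 KO cells of this class, whose median depths were 5687 and 6870 UMIs. When each cell was thinned to 2000 UMIs, leaving out 50 WT and 19 KO shallower cells, the shares were 27.9% (22.0 to 34.4%) and 26.9% (18.8 to 36.2%), and at 1000 UMIs they were 19.6% and 16.0%. These intervals are too wide to show or exclude a share lower by as much as the summed level. A Runx1 UMI was found in 186 of 265 WT and 108 of 127 KO cells, or in 48.4% and 56.5% after thinning. Of the cells with a Runx3 UMI, 119 of 141 in WT and 63 of 66 in KO also held a Runx1 UMI, a count that depends on depth. As background, WT epithelial cell-like cells, which should lack Runx3, held a Runx3 UMI in 3.36% of cells at a median depth of 4043 UMIs (1.45% after thinning), and WT plasma cell-like cells a Runx1 UMI in 4.95% of thinned cells. The classes planned as background were others and gave higher shares. WT neutrophil-like cells held a Runx3 UMI in 12.2% of cells (11.3% after thinning). WT epithelial cell-like cells held a Runx1 UMI in 33.6% (17.4% after thinning).

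Inflammatory monocyte-like cells, defined by markers such as Ly6c2, Ccr2 and F10, showed the largest Runx3 difference of the classes with over 100 Runx3 UMIs in each library. Runx3 was at 272 CPM in WT (873 UMIs) and 103 in KO (333 UMIs), a log2 ratio of -1.40 (-1.59 to -1.22) and 2.64-fold lower in KO. Cbfb was at -0.51 (-0.83 to -0.20), Runx1 at -0.07 (-0.19 to 0.04) and Runx2 at 0.31 (-0.14 to 0.76), which turned to -0.67 at Leiden resolution 2 and to -0.70 with each library clustered alone. The intervals of 2 of the 4 members lay below 0, against 28.7% of all 9092 genes tested, whose median was -0.20. A Runx3 UMI was found in 55.4% of WT and 44.0% of KO cells, and in 34.7% and 18.2% after thinning to 2000 UMIs.

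This class was, however, made of different clusters in the libraries, and in 3 of its 4 clusters the Runx3 levels of WT and KO did not differ beyond counting error. A cluster led by Ly6i and Cxcl9 held 87.1% of the WT cells (535) and 9.51% of the KO cells (37), and a cluster led by Chil3 and Ace held 5.54% of WT (34) and 71.2% of KO cells (277). In the Ly6i Cxcl9 cluster Runx3 was at 293 CPM in WT and 281 in KO (log2 ratio -0.06, -0.47 to 0.33). In the Chil3 Ace cluster it was at 97.7 and 93.1 (-0.07, -0.70 to 0.63), and in a cluster led by F13a1 and Ccnb1ip1 at 53.7 and 53.8, from 8 and 14 UMIs. Only the smallest cluster, with 15 WT and 39 KO cells, differed, with 409 (297 to 549) and 108 (71.1 to 157) CPM and a log2 ratio of -1.92 (-2.67 to -1.20). The mean of the 4 within-cluster log2 ratios was -0.51 against -1.40 for the class. Runx1 varied far less between these clusters, from 269 to 375 CPM, and in the Ly6i Cxcl9 cluster it was lower in KO, at -0.47 (-0.89 to -0.08). The Runx3 share of RUNX UMIs was 42.3% in WT and 48.7% in KO in the Ly6i Cxcl9 cluster and 20.2% and 18.6% in the Chil3 Ace cluster. Cbfb, at 0.19 for this class under coarser clustering, was at -0.07 (-1.01 to 0.74), 0.53 (-0.56 to 1.87), -0.22 (-1.63 to 1.28) and -0.99 (-2.79 to 0.85) in the Ly6i Cxcl9, Chil3 Ace, F13a1 Ccnb1ip1 and smallest clusters, and each of these intervals included 0. Cluster borders were drawn from genes that may differ between the genotypes.

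**Figure D3:**
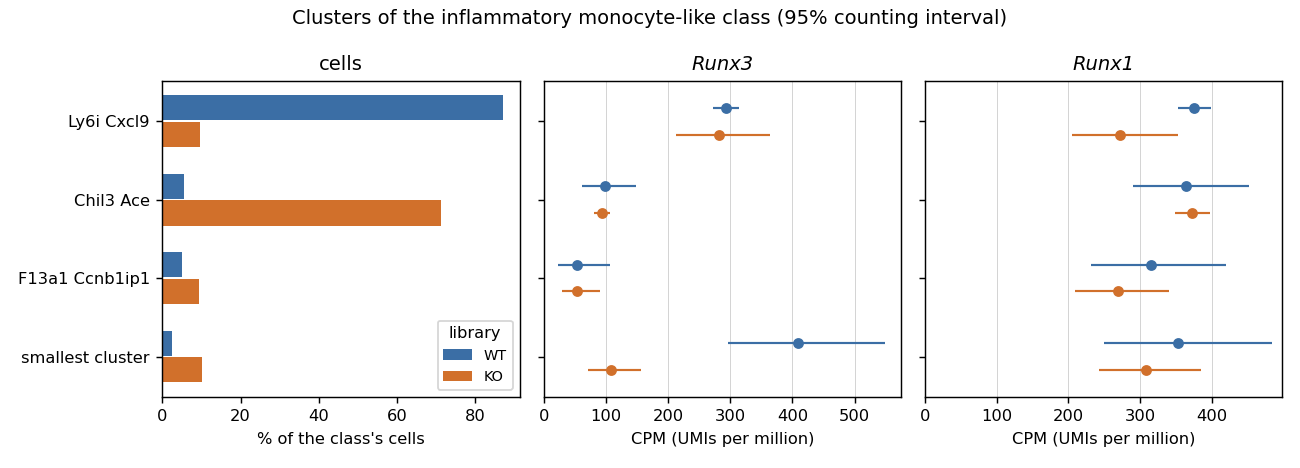
The 4 clusters of the inflammatory monocyte-like class, of which 3 are named by their 2 leading genes and the other by its size: share of the class's cells in each library (left, percent) and levels of Runx3 and Runx1 (CPM with exact Poisson 95% intervals; WT blue, KO orange). Most WT cells lay in the Ly6i Cxcl9 cluster (87.1%) and most KO cells in the Chil3 Ace cluster (71.2%), and within either cluster the WT and KO levels of Runx3 overlapped, at 293 and 281 and at 97.7 and 93.1.

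In the dendritic classes, where RUNX3 is known to act, Runx3 was lower in KO in each cluster. cDC2-like cells, a single cluster, had a Runx3 log2 ratio of -0.79 (-0.94 to -0.65) from 747 and 892 UMIs, Runx2 at -1.001 (-1.54 to -0.46) from 59 and 61 UMIs and Runx1 at -0.37 (-0.51 to -0.24), while Cbfb was at -0.11 (-0.38 to 0.16). The Runx1 ratio was at -0.13 relative to the median of all genes, and also at -0.13 with each library clustered alone. Intervals below 0 were thus seen for 3 of the 4 members, against 32.7% of all 9365 genes. In cDC1-like cells Runx3 was at -0.53 (-0.72 to -0.34), Cbfb at -0.48 (-0.73 to -0.22) and Runx2 at -0.81 (-1.47 to -0.13), and Runx1 was level at -0.01 (-0.19 to 0.18); 18.5% of all 9609 genes lay below 0 there. The cDC1-like class held a cluster led by Xcr1 and a cycling cluster led by Pclaf and Top2a. Runx3 was at 220 against 167 CPM in the Xcr1 cluster and at 256 against 157 in the cycling cluster, and both intervals of the log2 ratio lay below 0. Thinned to 2000 UMIs, 38.8% of WT and 29.8% of KO cDC2-like cells and 34.3% and 23.3% of cDC1-like cells held a Runx3 UMI. Mature DC-like cells, 19 in WT and 44 in KO, had Runx3 at -1.44 (-1.94 to -0.94) from 57 and 90 UMIs. Of these WT UMIs 78.9% lay in 5 cells. Cbfb was at -1.15 (-2.14 to -0.11) there, Runx1 at 0.09 (-0.82 to 1.13) and Runx2 at -1.21 (-2.64 to 0.36). The cluster led by Retnla and Ccl24, which held 277 KO but 18 WT cells, had 265 CPM of Runx1 in either library and 178 (121 to 253) and 140 (128 to 153) of Runx3.

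In granulocyte classes, whose cells were shallow, most values rested on few UMIs. Runx3 in neutrophil-like cells rested on 20 UMIs in 82 WT and 18 UMIs in 263 KO cells, 94.5 and 21.6 CPM, with a log2 ratio of -2.13 (-3.13 to -1.14); 70.0% of the WT UMIs lay in 5 cells, and the ratio ran from -2.51 to -0.81 over the alternatives, the latter with each library clustered alone. Runx1 was at -0.53 (-1.03 to -0.02), and at 0.0098 with each library clustered alone. Intervals of 2 of the 4 members lay below 0, against 19.1% of all 3867 genes. A Runx3 UMI was found in 12.2% of WT and 4.56% of KO neutrophil-like cells, beside 3.36% of WT epithelial cell-like cells. By level, KO neutrophil-like cells had 21.6 CPM (12.8 to 34.1) and WT epithelial cell-like cells 2.93 (0.951 to 6.84). The KO library held 14 epithelial cell-like cells, 1 of them with a Runx3 UMI, too few to give its own background. In eosinophil-like cells Runx3 was higher in KO, 143 against 72.3 CPM, at 0.98 (0.08 to 2.01), from 12 WT and 65 KO UMIs. Cbfb was lower, at -0.96 (-1.80 to -0.10), from 22 and 31 UMIs. Finer clustering (Leiden resolution 2) narrowed the class to 52 WT and 240 KO cells, with Runx3 at 0.057 and Cbfb at -0.25. Of all 3791 genes in this class 9.68% lay above 0 and 8.76% below. With cells assigned one by one to the class of their best marker score instead, the Runx3 ratio of this class was -0.62, so its direction depended on how the class was drawn.

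**Figure D4:**
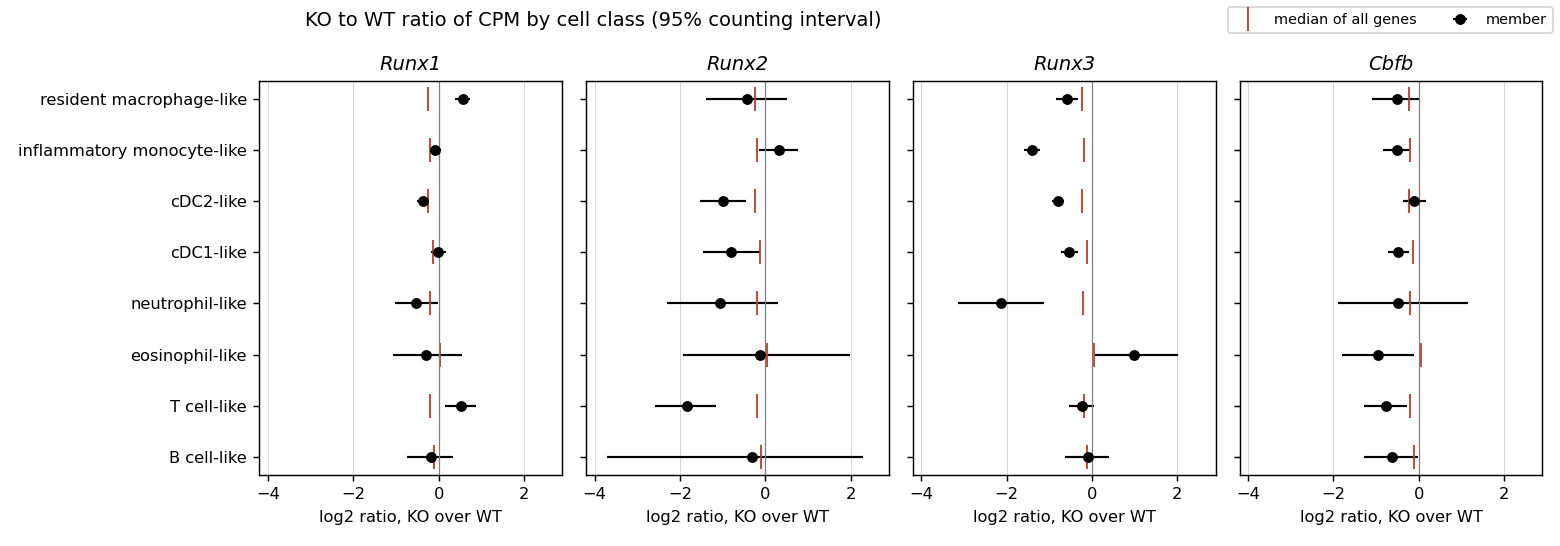
Log2 ratio of KO over WT (x axis) for each member in the 8 classes with at least 50 cells in both libraries; black points are the ratio of CPM with exact conditional binomial 95% intervals, and red ticks the median of all genes with at least 20 UMIs in that class. Runx3 lay below 0 in macrophage, monocyte, dendritic and neutrophil-like cells, from -2.13 to -0.53, and Runx1 lay above 0 in resident macrophage-like (0.56) and T cell-like cells (0.52), the latter at -0.055 with each library clustered alone.

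In T cell-like cells Runx3, the member known to act in CD8+ T cells, did not differ beyond counting error, at -0.24 (-0.53 to 0.04), from 357 UMIs in 243 WT and 143 UMIs in 108 KO cells, and was at -0.48 with 4000 variable genes and at -0.61 with each library clustered alone. Runx2 was 3.56-fold lower in KO, 102 against 28.6 CPM and a log2 ratio of -1.83 (-2.58 to -1.15) from 150 and 20 UMIs; it was at -3.76 with each library clustered alone and at -2.69 without the 5 richest cells of each library. Cbfb was at -0.76 (-1.27 to -0.28) and Runx1 at 0.52 (0.15 to 0.88). The granzyme cluster described below, a name that rests on its WT cells, held 59.3% of the WT and 30.6% of the KO cells of this class. Within clusters Runx1 was at 0.93 (0.18 to 1.63) in the granzyme, -0.28 (-0.75 to 0.19) in the Icos Rora and 0.46 (-0.85 to 1.89) in the Lef1 Dusp10 cluster. With each library clustered alone it was at -0.055, so its direction depended on how the class was drawn. Cbfb was below 0 in each of these clusters, at -1.43 (-2.59 to -0.45), -0.30 (-1.09 to 0.47) and -0.39 (-1.84 to 1.09). In the whole class the intervals of 2 members lay below 0 and 1 above, against 21.5% and 10.9% of all 7622 genes. B cell-like cells differed in Cbfb, at -0.63 (-1.29 to -0.02), where 13.3% of all 5795 genes lay below 0, and had Runx1 at -0.19 (-0.74 to 0.34) and Runx3 at -0.10 (-0.63 to 0.41).

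Runx2 was lower in KO in 2 of the 3 T cell clusters. In a cluster led by the granzyme genes Gzma and Gzmb it was at 107 CPM (87.8 to 129, 108 UMIs in 144 cells) in WT and at 4.80 (0.121 to 26.7, 1 UMI in 33 cells) in KO. In a cluster led by Icos and Rora, genes of helper and regulatory T cells and innate-like lymphocytes, it was at 120 (86.7 to 163) and 56.3 (33.4 to 89.1), and its log2 ratio was -1.09 (-1.98 to -0.27). In a cluster led by Lef1, a transcription factor gene of naive T cells, and Dusp10, 0 UMIs were found in 27 WT cells, with an upper bound of 31.1 CPM, and 1 in 30 KO cells. Neither the granzyme nor the Icos Rora cluster held like cells in the libraries. In the Icos Rora cluster Gzmb was at 578 (501 to 664) CPM in WT and 106 (73.7 to 149) in KO, Itgae at 120 and 34.4 and Trac, the constant chain of αβ T cells, at 421 and 247. In the granzyme cluster Gzma was at 14718 CPM in WT and at 0 UMIs in KO, and Gzmb at 1964 and 9.59 CPM. The name of this cluster thus rests on its WT cells. Itgae, the integrin of intraepithelial lymphocytes, was at 646 and 33.6, Cd8a at 372 and 38.4, and Trdc, the constant chain of γδ T cells, at 262 and 57.6. Among the WT cells of this cluster Runx2 was at 107 with and at 106 without a Gzma UMI (109 and 35 cells). In cells without an Itgae UMI it was at 143 (86.4 to 224, 20 cells) in WT and at 5.42 (0.137 to 30.2, 30 cells) in KO. An Itgae UMI was found in 86.1% of the WT cells of this cluster. The WT cells without one had a median of 4759 UMIs and may lack it through depth alone. These splits thus do not match like cells between the libraries. Runx2 was at 109 in the 142 WT cells with fewer than 5 Jchain UMIs, Jchain being a plasma cell gene. In WT, Runx1 was at 60.5 CPM in the granzyme cluster and at 258 (207 to 317) in the Icos Rora cluster, and Runx3 at 230 and 295. T cell-like cells with a Cd8a or Cd8b1 UMI held Runx3 at 192 (161 to 228) in WT and 194 (125 to 289) in KO, and those with a Cd4 UMI and neither Cd8 gene at 309 (235 to 397) and 215 (155 to 290).

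**Figure D5:**
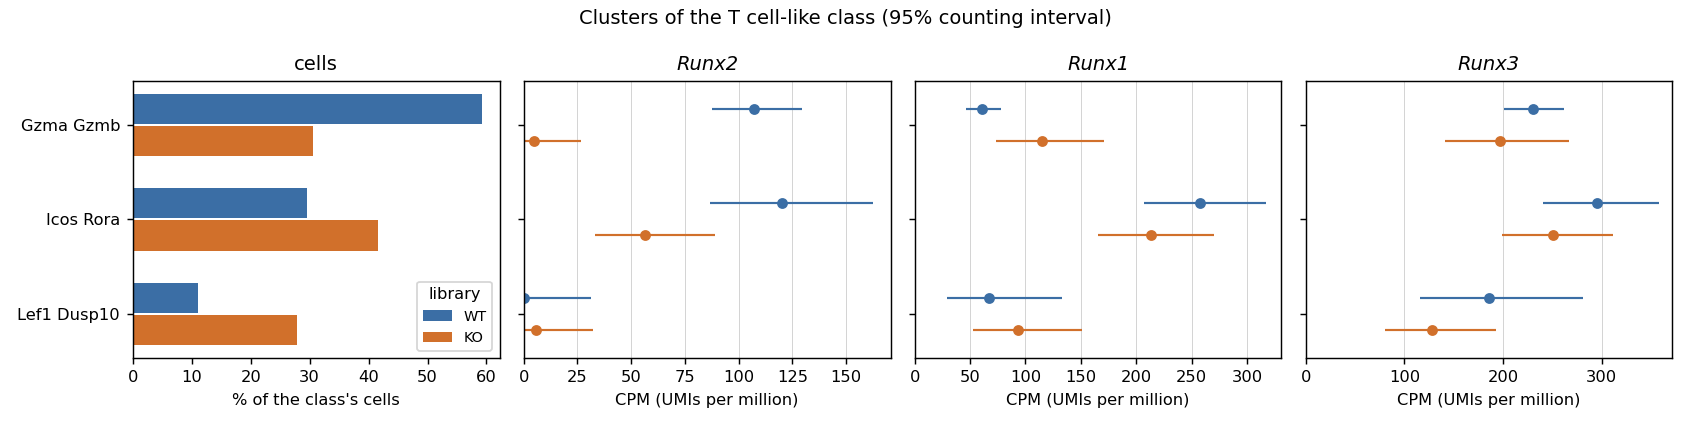
The 3 clusters of the T cell-like class, named by their 2 leading genes: share of the class's cells (left, percent) and levels of Runx2, Runx1 and Runx3 (CPM with exact Poisson 95% intervals; WT blue, KO orange). Runx2 was at 107 and 120 in the Gzma Gzmb and Icos Rora clusters of WT, at 4.80 and 56.3 in KO, and rested on 0 and 1 UMI in the Lef1 Dusp10 cluster, while the Runx3 intervals of WT and KO overlapped in all 3.

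Summed over all cells that passed the filter, Runx3 was at 173 CPM in WT and 144 in KO, a log2 ratio of -0.27 (-0.34 to -0.20) beside a median of -0.27 for all 14006 genes. Runx1 was at 182 and 245 (0.43, 0.37 to 0.49), Runx2 at 31.7 and 15.9 (-0.998, -1.19 to -0.81) and Cbfb at 65.4 and 62.3 (-0.07, -0.18 to 0.04). Of the 4 members 2 thus lay below 0 and 1 above, against 49.6% and 20.1% of all genes. These sums mix classes of unequal size: plasma cell-like cells, for example, numbered 235 in WT and 5 in KO.

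Partners and cofactors of RUNX proteins were read beside the members. Of 20 listed genes 18 had at least 20 UMIs in resident macrophage-like cells; 4 were at least 1.5-fold lower and 2 at least 1.5-fold higher in KO, with a median log2 ratio of -0.16, where 26.2% and 9.43% of all genes lay past these folds and their median was -0.24. The lowest were Cbfa2t2 (-1.56, from 20 and 4 UMIs), Hdac3 (-1.44) and Tle3 (-0.79), a histone deacetylase and corepressors, and the highest were Ets1 (1.36, 0.68 to 2.07), a transcription factor that binds DNA together with RUNX1, Tle1 (0.80) and Sin3a (0.58). In inflammatory monocyte-like cells 4 of 18 were lower and 1 higher, with a median of -0.08 against -0.20 for all genes, of which 24.3% and 9.29% lay past these folds. There the lowest were Cbfa2t2 (-2.01), Hdac3 (-1.52) and Suv39h1 (-1.38), and the highest Smad3 (0.60), Ets1 (0.25) and Cbfa2t3 (0.25). These monocyte-like ratios are of the whole class, which was made of different clusters in WT and KO.

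Genes known as RUNX targets in other cells included higher and lower ones. Of 25 listed, 12 had at least 20 UMIs in resident macrophage-like cells, 1 lower and 4 higher by 1.5-fold, with a median of 0.20, beside 26.2% and 9.43% of all genes and their median of -0.24. Ccr7, a chemokine receptor that also served as a naming marker of mature dendritic cells, was lowest at -1.61 (-2.11 to -1.13), followed by the integrin genes Itgal (-0.53) and Itgax (-0.35). Itgae (2.70, from 6 and 23 UMIs), the collagenase gene Mmp13 (2.17, 2.02 to 2.34, from 444 and 1182 UMIs) and Il2rb (1.76, from 8 and 16 UMIs) were highest. In inflammatory monocyte-like cells 4 of 10 were lower and 2 higher, with a median of 0.20 beside 24.3%, 9.29% and -0.20 for all genes: Il2rb (-2.60, from 18 and 3 UMIs), Ccr7 (-2.17) and Mmp13 (-1.92) were lowest, and Spp1 (1.12), Itgal (0.93) and Itga4 (0.48) highest. Itgal and Mmp13 thus had opposite signs in the 2 classes, a difference that was not tested. The monocyte-like ratios compare unlike clusters, since 87.1% of WT cells lay in the Ly6i Cxcl9 and 71.2% of KO cells in the Chil3 Ace cluster. No within-cluster value is given for these genes, so their ratios cannot be told apart from this difference in make-up.

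The genes whose pattern over the 19 pairs of class and library with at least 50 cells was most like each member were read from 5680 genes on the log2(CPM + 10) scale, as a description without a test; the points share 2 libraries and, in part, cell lineage. For Runx1 these were Nfkbib (Pearson's r 0.90), Ptprj, Ube2f, Tet2 and Spag9, for Runx3 Gpr183 (0.88), Fermt3, Lin54, Rab43 and Fnbp1, and for Cbfb Supt16 (0.90), Hnrnpul1, Snrpc, Khdrbs1 and Alyref. For Runx2 they were Leprotl1 (0.70), Gzma, Kcnab2, B2m and D16Ertd472e. Among the members, Runx1 and Runx3 had an r of 0.63, Runx3 and Cbfb 0.45, Runx1 and Cbfb 0.04 and Runx1 and Runx2 -0.06.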

How the data were processed

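Single-cell 3' libraries (10x Genomics, version 3 chemistry) of colon lamina propria cells were counted by the authors with Cell Ranger 3.0.2 per the file headers; mm10 and Seurat 4 stand in the submitters' processing notes. The matrices deposited by the authors hold unnormalised counts of UMIs for each gene and barcode. Cells with 200 to 6000 genes and at most 15% mitochondrial UMIs, the filter stated by the study, were kept. Counts were scaled to 10000 per cell and log-transformed, and 2000 variable genes without the 4 members, 30 principal components, 15 neighbours and the Leiden algorithm at resolution 1 (seed 7) gave 23 clusters (scanpy 1.11.5, scikit-learn 1.9.0, leidenalg 0.10.2, scipy 1.17.1, numpy 2.4.6, Python 3.11.15).

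A marker counted as raised in a cluster at 2 times the level of the other cells (with 10 CPM added) and in 10% of its cells. Each cluster was named for the class of which it raised the highest share of markers, at least 3, and ties went to the class with more markers among the 10 leading genes. A cluster whose leading genes held more markers of another class was left unnamed. This held for a cluster led by Zg16 and Muc2 (26 WT and 2 KO cells), which raised 7 of 8 epithelial markers. Its cells are thus not part of the epithelial cell-like values. A cluster led by Retnla and Ccl24 was left unnamed by a rule added after its genes were seen. Scrublet called 1 WT and 7 KO cells as doublets, which is too few for the caller to have worked, so no doublets were removed. The libraries shared 1 barcode.

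UMIs were summed per class and library. Levels were given in CPM (UMIs per 1000000 UMIs) with exact Poisson 95% intervals, shares with exact Clopper-Pearson intervals, and KO to WT log2 ratios with exact conditional binomial intervals. PCR duplicates are removed by UMIs, and the intervals cover counting error only. For shares of positive cells each cell was also thinned to 2000 and to 1000 UMIs. All genes with 20 UMIs or more in a class, both libraries together, served as background. The interval method was run on simulated Poisson counts, the setting that it assumes. That run did not cover an uneven spread of UMIs between cells. The named genes were the members, the 3 highest and 3 lowest of each list, and the 5 genes most like each member; other genes served as markers, and those of the T cell clusters were chosen after their values were seen. The members, markers and lists were chosen with earlier results of these data known.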

Additional observations from a re-analysis of the deposited data

Results flagged for a closer look

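The KO to WT log2 ratios of Runx1 in resident macrophage-like and neutrophil-like cells had opposite signs, 0.56 and -0.53, and lay 1.09 apart. The neutrophil-like value was 0.0098 with each library clustered alone, and the resident macrophage-like value 0.055 at Leiden resolution 0.5, so the opposition depended on how the classes were drawn. Opposite signs were also found for Runx3 in eosinophil-like and neutrophil-like cells, 0.98 and -2.13, which lay 3.11 apart. The eosinophil-like value was 0.057 at Leiden resolution 2 and -0.62 by highest marker score. Neither difference was tested, since each genotype had 1 library, and the neutrophil-like and eosinophil-like values of Runx3 rested on between 12 and 65 UMIs per library.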

How the results depend on the processing

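The log2 ratio of Runx3 stayed below 0 in resident macrophage-like cells under 12 of 12 alternatives (-0.79 to -0.35) and in inflammatory monocyte-like cells under 13 of 13, the mean of the within-cluster values among them (-1.48 to -0.51), and that of Runx1 in resident macrophage-like cells stayed above 0 under 12 of 12 (0.06 to 0.80). The causes of the shifts below were not tested. In inflammatory monocyte-like cells Runx3 was at -1.06 at Leiden resolution 0.5, -0.54 with 4000 variable genes, -0.87 with the stricter cell filter, -1.15 by highest marker score and -1.21 once the all-gene median was subtracted. By cluster it was -0.058 in the Ly6i Cxcl9, -0.069 in the Chil3 Ace, 0.0016 in the F13a1 Ccnb1ip1 and -1.92 in the smallest cluster, with a mean of -0.51; clusters were taken alone by a choice made after seeing the data. Runx1 there was at 0.10 with 4000 variable genes, 0.12 relative to the median, and -0.47, -0.23 and -0.20 in the Ly6i Cxcl9, F13a1 Ccnb1ip1 and smallest clusters (mean -0.22). Runx2 was at -0.67 at resolution 2, -0.70 with each library clustered alone, -0.19 by marker score and -2.39 in the F13a1 Ccnb1ip1 cluster. Cbfb was at 0.19 at resolution 0.5, -0.027 with the stricter filter, -0.072, 0.53 and -0.99 in the Ly6i Cxcl9, Chil3 Ace and smallest clusters, with a mean of -0.19. The Runx3 share of RUNX UMIs in this class was lower in KO by -13.9, -8.45, -17.7, -11.3 and -14.8 percentage points at resolution 0.5, with 4000 variable genes, with each library alone, with the stricter filter and by marker score; by cluster in the order above the difference was 6.40, -1.58, 2.68 and -25.8. Runx1 in resident macrophage-like cells was at 0.055 at resolution 0.5, 0.21 with each library alone, 0.33 with the stricter filter, 0.36 by marker score and 0.80 relative to the median.

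Clustering each library alone gave Runx1 at -0.055 in T cell-like and 0.0098 in neutrophil-like cells, and it was at -0.28 in the Icos Rora cluster. Runx3 in eosinophil-like cells was at 0.057 at resolution 2 and -0.62 by marker score. Genes at least 1.5-fold lower in resident macrophage-like cells numbered 2084 and became 4717 with no UMI minimum, 1292 with a minimum of 50 and 806 at 2-fold; those higher numbered 750 and became 3081, 407 and 301. In inflammatory monocyte-like cells 2212 lower genes became 5095 with no minimum and 955 at 2-fold, and 845 higher ones 2588 and 325. No paired analysis was possible because each genotype had 1 library. At the depth of these libraries Runx2 in most classes, and all members in granulocyte-like cells, rested on too few UMIs to place a difference below about the width of the intervals given.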
